A study of Homo sapiens with 32 samples.

Results

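DDX17 and AKAP13, which encode estrogen receptor coregulators, were followed through 14 days of tamoxifen treatment in xenografts of the estrogen receptor-positive human breast cancer line ZR-75-1. Both genes were chosen by name, as all probes that the study's list of changed probes assigns to them, and they were singled out for a rise at day 1 that was seen on these same arrays. They hold 2 genes and 4 probes of the 9912 on the array, of which 333 carry a gene name. The values that chose them are therefore given as a description, with means, SD and n. Counts of calls from the fit across all probes are given beside the share of all probes called, and nothing about DDX17 or AKAP13 is read from them. All xenografts grew in the flanks of female nu/nu mice that received slow-release 17β-estradiol (E2). The treated mice also carried a source of tamoxifen (2.5 mg, with release spread over 60 days) for 1, 2, 4, 7 or 14 days. Day 1 had 4 tumors from 2 mice, day 2 had 2 tumors from 2 mice, days 4 and 7 had 4 tumors from 3 mice each, and day 14 had 2 tumors from 2 mice. Each tumor was hybridized in both dye orientations, on 32 arrays in all, against 1 pool of RNA from E2-only xenografts of days 0, 1, 2 and 4. The pool is a single sample with no spread of its own. It mixes days, so no treated tumor was set against E2-only tumors of its own day alone. Tamoxifen and time therefore cannot be fully told apart on any day, and not at all on days 7 and 14, beyond the pooled days. Any difference between day 1 and later days carries the same limit. The xenografts come from 1 cell line passaged in mice that lack T cells, and tumors of 1 mouse share a host.

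DDX17, also called p72, is a DEAD-box RNA helicase that takes part in pre-mRNA splicing and microRNA processing. Together with its close relative DDX5 it binds the estrogen receptor alpha and acts as a coactivator. AKAP13, also called AKAP-Lbc or Brx, is a scaffold that anchors protein kinase A and also acts as a guanine nucleotide exchange factor, and its Brx form binds nuclear receptors. Tamoxifen occupies the ligand pocket of the receptor and, in breast cancer cells, favors corepressors over coactivators at most target genes.

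DDX17 lies on chromosome 22 (chr22:38483438-38506311, GRCh38.p14) and AKAP13 on chromosome 15 (chr15:85380603-85749358). The promoter windows of RefSeq (GRCh38.p14), 300 bases around each annotated start, are shown because both genes moved together and the study asks about estrogen-regulated genes. The DDX17 window is chr22:38506262-38506561 on the minus strand, and the AKAP13 windows are chr15:85380353-85380652 and chr15:85619700-85619999 on the plus strand. Each is printed in the direction of transcription, and capitals mark GGTCA, one arm of the estrogen response element, on either strand (TGACC on the other strand).
DDX17: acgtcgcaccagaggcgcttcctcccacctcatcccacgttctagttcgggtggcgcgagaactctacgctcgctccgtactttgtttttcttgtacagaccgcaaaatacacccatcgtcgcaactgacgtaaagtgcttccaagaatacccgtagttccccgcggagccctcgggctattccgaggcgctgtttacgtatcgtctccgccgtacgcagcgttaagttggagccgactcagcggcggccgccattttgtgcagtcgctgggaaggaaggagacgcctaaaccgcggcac
AKAP13, first start: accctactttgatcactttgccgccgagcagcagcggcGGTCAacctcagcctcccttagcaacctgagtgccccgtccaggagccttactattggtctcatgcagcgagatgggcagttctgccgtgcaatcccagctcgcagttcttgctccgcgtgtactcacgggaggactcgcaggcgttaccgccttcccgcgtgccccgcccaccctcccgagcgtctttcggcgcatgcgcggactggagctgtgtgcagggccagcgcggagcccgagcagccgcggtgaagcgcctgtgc
AKAP13, second start: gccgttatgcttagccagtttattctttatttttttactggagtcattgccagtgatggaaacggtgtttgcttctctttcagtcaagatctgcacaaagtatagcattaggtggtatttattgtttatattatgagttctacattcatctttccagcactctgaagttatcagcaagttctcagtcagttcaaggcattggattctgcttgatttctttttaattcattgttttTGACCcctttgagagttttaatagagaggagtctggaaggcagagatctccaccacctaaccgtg
The DDX17 window held 0 copies of GGTCA and each AKAP13 window held 1, at position -212 in the first and at position -15, on the other strand, in the second. Of all 35116 promoter windows of this length, 37.4% held at least 1 copy. The full palindrome, GGTCA and TGACC separated by any 3 bases, was found in 20 windows (0.057%), and in neither gene. Which AKAP13 start gave the RNA measured here is not given in the sources used here.

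All values below are log2 ratios of the tamoxifen-treated tumor over the E2-only pool, so that a positive value means a higher level in the treated tumor. This direction is likely rather than certain. It is the direction of the deposited value table, whose columns all correlated positively with the ratios used here (lowest r = 0.217), and of the study's placing of both genes in a set of induced genes. In this direction 18 of 20 estrogen-induced genes were called lower at day 14 and 0 higher, beside 2.92% and 3.26% of all probes. These 20 genes were already selected for change by the study. Should channel numbers in the scanner files match those in the labels, every sign is turned round. At day 4, the swapped array of replicate 3 (titled replicate 4 in the labels, with the same tumor name) nearly repeated the forward array of replicate 2 before normalization. Their ratios correlated at 0.978 in size and their channels at 0.997 and 0.994. The swapped array of replicate 3 was not used, because its ratios correlated at -0.374 with those of its own forward array over the named probes. The forward array of replicate 2 correlated at 0.705 with its own dye-swap array. Replicate 3 of day 4 therefore rests on 1 array. The day 4 tumors are numbered 1, 2, 3 and 5, as the labels do.

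After 1 day DDX17 stood above the pool in all 4 tumors, at about 1.9-fold. The first DDX17 probe (263741_A) had log2 ratios of 1.08, 1.20, 0.72 and 0.72 in day 1 replicates 1 to 4, a mean of 0.93 ± 0.25 (SD, n = 4). The second probe (50574_C) had 1.04, 1.44, 0.55 and 0.75, a mean of 0.95 ± 0.39 (SD, n = 4). Replicates 1 and 2, which grew in the same mouse, were the higher ones on both probes. All 16 DDX17 spots of day 1 were above the pool, with log2 ratios between 0.13 and 1.71.

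AKAP13 was also above the pool in all 4 tumors of day 1, at 1.58-fold on one probe and 1.79-fold on the other. Its first probe (1635608_A) had log2 ratios of 0.35, 0.88, 0.62 and 0.78 in day 1 replicates 1 to 4, a mean of 0.66 ± 0.23 (SD, n = 4). Its second probe (1986495_B) had 0.77, 0.97, 0.84 and 0.77, a mean of 0.84 ± 0.09 (SD, n = 4), which was the tightest day of any member probe with 4 tumors. All 16 AKAP13 spots of day 1 were above the pool, with log2 ratios between 0.24 and 1.22. Ordered by their day 1 mean over all 9912 probes, the DDX17 probes ranked 2 and 4 from the top and the AKAP13 probes 14 and 49.

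**Figure D1:**
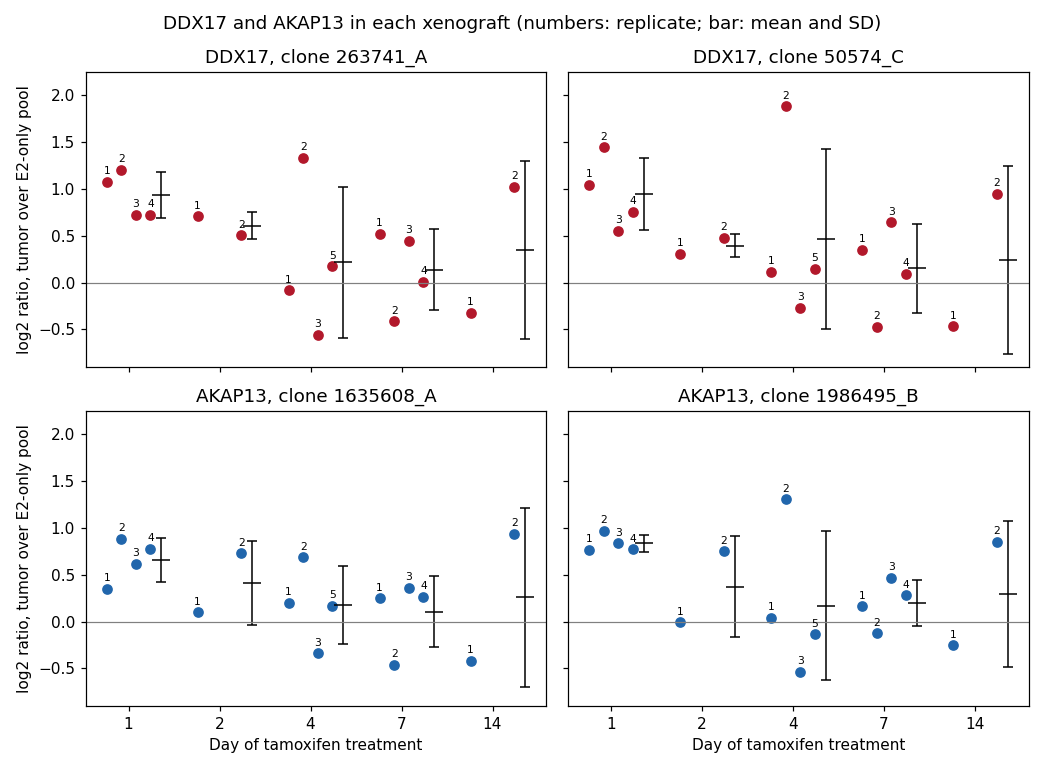
Log2 ratio of tamoxifen-treated tumor over E2-only pool (y axis) by day of treatment (x axis) for the 4 probes, with 1 point per tumor, its replicate number above it, and the mean and SD of each day beside the points. All points of day 1 lie above 0, while day 4 replicate 2 and day 14 replicate 2 reach the level of day 1 and other tumors of the same days lie below 0.

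The spots behind these ratios were of moderate brightness. Over the arrays used, the tumor channel of a member spot had a median signal over background between 6.16 and 11.2, and the pool channel between 4.71 and 7.39. On the forward array of day 1 replicate 1, the first DDX17 spot read 2943 units above local background in the tumor channel and 949.9 in the pool channel, and the second AKAP13 spot read 1824 and 801.9. On the dye-swap array of the same tumor the DDX17 spot read 864.2 in the tumor channel and 708.3 in the pool channel before normalization. No member spot carried the mark 0 that removes a spot.

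At day 2 both tumors were still above the pool for DDX17, and only 1 of them was clearly so for AKAP13. DDX17 had log2 ratios of 0.71 and 0.50 on its first probe and 0.30 and 0.48 on its second probe in replicates 1 and 2. AKAP13 had 0.10 and 0.73 on its first probe and -0.01 and 0.75 on its second probe. Replicate 2 thus held AKAP13 within the range of day 1 on its first probe and just under it on its second, while replicate 1 held it near the level of the pool. Replicate 1 was not above the pool for DDX17 in the deposited value table, which had log2 ratios of 0.09 and -0.27 on its forward and dye-swap arrays for the first probe and 0.33 and -0.44 for the second. That dye-swap column matched its scanner file poorly (r = 0.332), and the DDX17 mean of day 2 was 0.20 in the value table, against 0.50.

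From day 4 on, the tumors of a day differed from each other more than the days did. At day 4 the first DDX17 probe had log2 ratios of -0.08, 1.33, -0.56 and 0.17 in replicates 1, 2, 3 and 5, and the second had 0.11, 1.88, -0.27 and 0.15. AKAP13 had 0.20, 0.69, -0.34 and 0.17 on its first probe and 0.04, 1.31, -0.53 and -0.13 on its second. Replicate 2 carried the highest value of the day on every probe and replicate 3 the lowest. Replicates 1 and 2 grew in the same mouse, and their means over both probes lay 1.59 apart for DDX17 and 0.88 apart for AKAP13. In the pairs of day 1 tumors that shared a mouse, these gaps were 0.10 and 0.26 for DDX17 and 0.05 and 0.36 for AKAP13.

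The high DDX17 value of day 4 replicate 2 rested more on one of its arrays than on the other. The mean of both DDX17 probes was 2.47 on the forward array and 0.75 on the dye-swap array, the widest gap of any tumor, whereas AKAP13 had 0.99 and 1.00. On that forward array the pool channel of the first DDX17 spot was 2.95 times its background, the lowest of the 31 arrays used for that spot. The forward array is also one of the near-identical pair. Without both arrays of that pair, a setting added after the values were seen, the day 4 mean was 0.13 for DDX17, against 0.34 with the forward array, and 0.18 for AKAP13, against 0.17.

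At day 7 the highest value on any probe was 0.64. DDX17 had log2 ratios of 0.52, -0.41, 0.44 and 0.01 in replicates 1 to 4 on its first probe and 0.35, -0.47, 0.64 and 0.09 on its second. AKAP13 had 0.25, -0.46, 0.36 and 0.27 on its first probe and 0.17, -0.13, 0.47 and 0.28 on its second. Replicate 2 was below the pool on all 4 probes, and the other tumors were above it.

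At day 14 the 2 tumors stood on opposite sides of the pool for both genes. In replicates 1 and 2, DDX17 had log2 ratios of -0.33 and 1.02 on its first probe and -0.47 and 0.95 on its second. AKAP13 had -0.42 and 0.94 on its first probe and -0.25 and 0.85 on its second. The day 14 means, 0.29 ± 0.98 for DDX17 and 0.28 ± 0.87 for AKAP13 (SD, n = 2, mean of both probes), describe neither tumor. Without replicate 1 the day 14 value was 0.98 for DDX17 and 0.89 for AKAP13, and without replicate 2 it was -0.40 and -0.34.

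Whether the rise of day 1 was transient depends on whether means or tumors are read. Over both probes, the means of days 1, 2, 4, 7 and 14 were 0.94, 0.50, 0.34, 0.15 and 0.29 for DDX17 and 0.75, 0.39, 0.17, 0.15 and 0.28 for AKAP13, so day 1 was the highest day for both genes. The day 4 means were -0.08 for DDX17 and -0.10 for AKAP13 without replicate 2, and 0.10 and 0.08 with the near-identical array used as labelled. All 4 member probes had their highest mean at day 1. Both genes were singled out for a day 1 rise on these arrays, so an excess over later days follows in part from that choice. The differences below are a description. Day 1 stood above the mean of the 4 later days by 0.62 ± 0.36 for DDX17 and by 0.50 ± 0.28 for AKAP13 (SE from the pooled SD within days), that is 1.54-fold and 1.41-fold. The spread between tumors of a day, pooled over days, was 0.62 for DDX17 and 0.47 for AKAP13, about as large as these differences. The differences from single days were widest against day 7, at 0.79 ± 0.43 for DDX17 and 0.60 ± 0.33 for AKAP13 (SE). They were narrowest against day 2, at 0.44 ± 0.53 and 0.35 ± 0.41 (SE). Every SE here counts tumors rather than mice, although the 4 tumors of day 1 came from 2 mice. The pooled SD also joins days of unlike spread. Their own SD ran from 0.01 to 0.98 for DDX17 and from 0.15 to 0.87 for AKAP13. No member probe separated day 1 from the 12 later tumors. At least the lowest day 1 value was reached by 2 later tumors on the first DDX17 probe, 3 on the second, 4 on the first AKAP13 probe and 2 on the second, and day 4 replicate 2 and day 14 replicate 2 were among them each time. Between 3 and 5 of the 12 later tumors lay below the pool on each probe, and none of the 4 day 1 tumors did.

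A limma fit over all probes, with a mean for each day and a random effect of the mouse, called a probe at an adjusted p under 0.05. All 4 member probes were called higher at day 1, where 2.98% of all probes (295 of 9912) were called higher and 3.57% (354) lower, which would be the share to set beside them if the sign were turned. At days 2, 4, 7 and 14, 0 of the 4 were called higher by limma, also at an unadjusted p under 0.05, beside 0.141%, 0.343%, 0.242% and 3.26% of all probes. In the contrast of day 1 with the mean of the later days, 0 of 4 were called (2 at an unadjusted p under 0.05), and 0% of all probes were called higher there (429 at an unadjusted p under 0.05), while 2 were called lower. The count of member calls at day 1 changed with single tumors. Leaving out day 1 replicate 1, 2 or 3 or day 4 replicate 1 left 0 of 4 called. Over all probes, 43, 51, 103 and 137 were then called higher, against 295. Leaving out day 1 replicate 4 left 1 of 4, beside 226 of all probes. With 1 mean per mouse, which left 2 values at day 1, 0 of 4 were called, beside 6 of all probes. With the near-identical array used as labelled, 0 of 4 were called as well, beside 139. In these settings calls thus fell over all probes, and not for the members alone. Other settings differed. On forward arrays alone 1 of 4 was called, while 880 of all probes were. With marked spots kept 2 of 4 were called, beside 265 of all probes. Without day 7 replicate 1, 3 or 4 the count was 2 of 4, beside 243, 242 and 263. The main calls of the second DDX17 probe and the first AKAP13 probe lay just under the threshold.

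**Figure D2:**
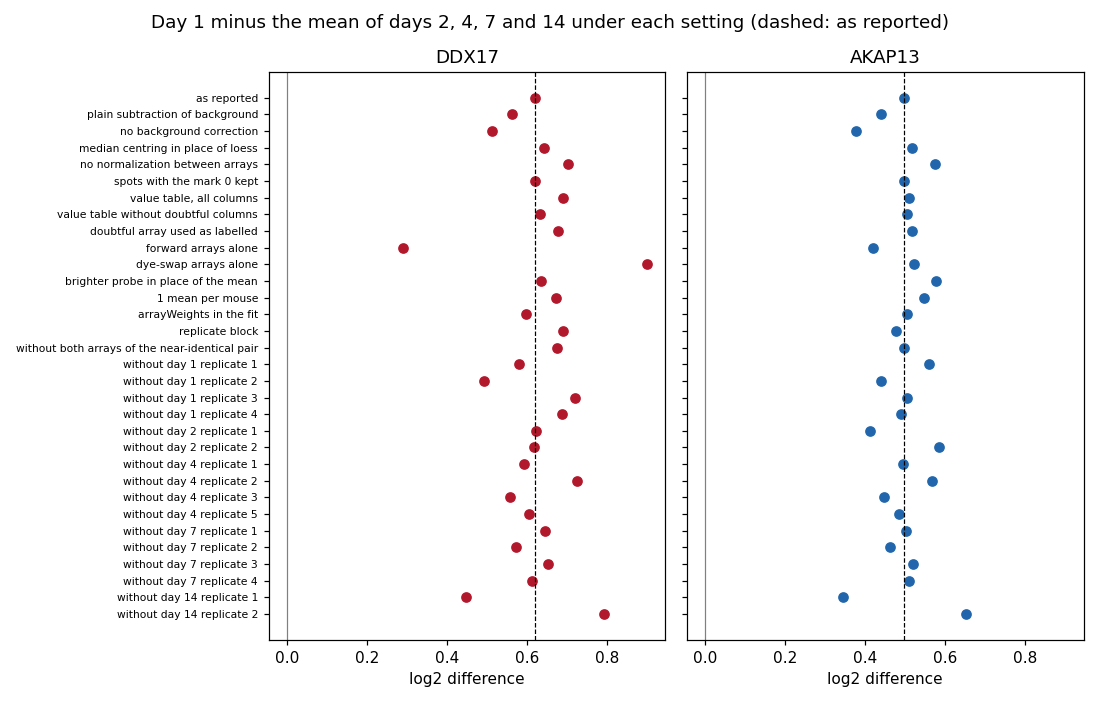
Difference in log2 ratio between day 1 and the mean of days 2, 4, 7 and 14 (x axis) for DDX17 and AKAP13 under each processing setting and with each tumor left out (y axis), with the reported value dashed. Every point lies above 0, from 0.29 to 0.90 for DDX17 and from 0.34 to 0.65 for AKAP13. All settings reuse the tumors on which both genes were chosen for a day 1 rise.

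Both dye orientations pointed the same way in most tumors. Of the 15 tumors with both arrays, the forward and the dye-swap array had the same sign in 12 for DDX17 and in 12 for AKAP13, and the median gap between them was 0.38 and 0.27. At day 1 all 4 tumors were above the pool in both orientations for both genes. The orientations differed most for DDX17, which averaged 0.69 at day 1 on the forward arrays and 1.19 on the dye-swap arrays. Day 1 exceeded the later days by 0.29 on the forward arrays alone and by 0.90 on the dye-swap arrays alone for DDX17, and by 0.42 and 0.52 for AKAP13. Day 4 replicate 1, the tumor of the same mouse as replicate 2, had opposite signs in the 2 orientations for both genes, with -0.41 and 0.44 for DDX17 and -0.18 and 0.42 for AKAP13.

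**Figure D3:**
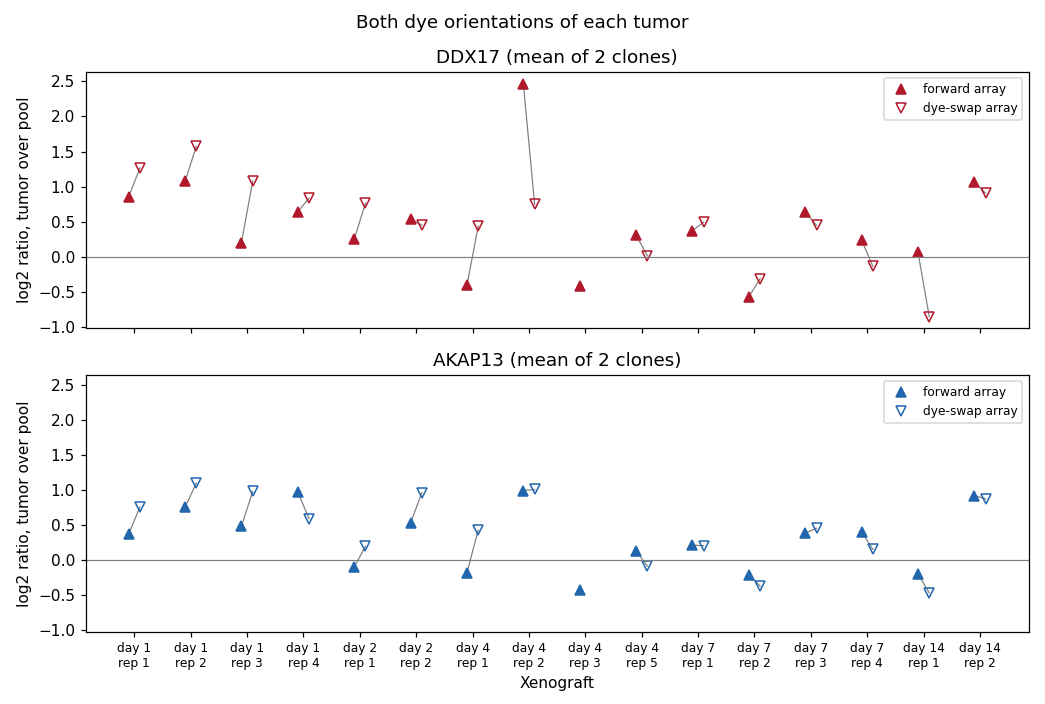
Log2 ratio of tumor over pool (y axis) on the forward array and on the dye-swap array of each xenograft (x axis), as the mean of both probes of DDX17 and of AKAP13, with a line joining arrays of 1 tumor. The forward array of day 4 replicate 2 stands alone at 2.47 for DDX17, and day 4 replicate 3 has only its forward array.

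The 4 probes followed one another closely across the 16 tumors. The DDX17 probes had an r of 0.94 with each other, and each was the most similar of the 9911 other probes to its partner. The AKAP13 probes had an r of 0.89, and between the genes r lay between 0.83 and 0.91 for single probes and was 0.91 for the means (Spearman's rank correlation 0.89). Both genes were on the same side of the pool in all 16 tumors. The r of the means was 0.88 for deviations from the day means, and also 0.88 without day 4 replicate 2 and day 7 replicate 2, the tumors farthest from the DDX17 median. These values are descriptions, since every ratio shares the same pool and the spots of an array share its hybridization.

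Among the 251 other named genes, those with profiles most like DDX17 over the 16 tumors included TM4SF4 (r = 0.88), TPR (0.86), ZNF36 (0.85) and ETV6 (0.85). For AKAP13 they included TPR (0.85), ZXDC (0.78), VKORC1L1 (0.78) and TFAP2B (0.76). TPR is a protein of the nuclear pore basket, ETV6 is a repressor of the ETS family, and TFAP2B is a transcription factor of the AP-2 family. All of them came from the same set of induced genes as DDX17 and AKAP13. TPR averaged 0.72 ± 0.30 at day 1 (SD, n = 4), with 1.56 in day 4 replicate 2. At day 14 TPR was at 0.63 in replicate 2 and at -0.62 in replicate 1, the same split between tumors as for DDX17 and AKAP13. TFAP2B differed there, with a day 14 mean of 0.76 above its day 1 mean of 0.55.

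**Figure D4:**
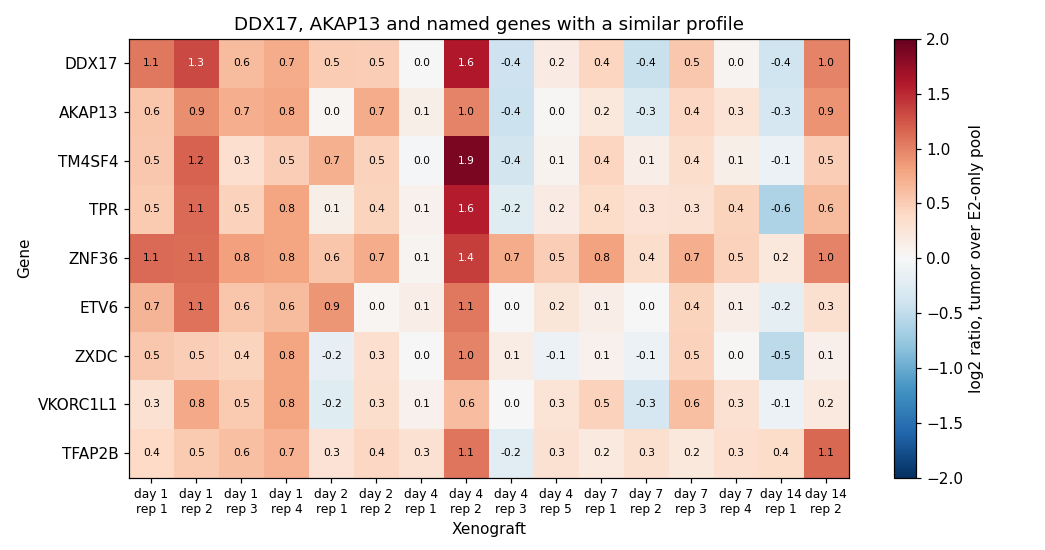
Log2 ratio of tumor over pool (color and printed value) of DDX17 and AKAP13, as means of their probes, and of 7 of the named genes with the most similar profiles (rows) in the 16 xenografts (columns, by day). The columns of day 1 and of day 4 replicate 2 are red in every row, and day 14 replicate 1 is blue in 7 of the 9 rows.

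The study's set of induced genes, set 6, holds 159 probes, among them the 4 of DDX17 and AKAP13, and it moved otherwise than they did. Of these 159 probes, 128 had their highest mean at day 14 and 27, the 4 members among them, at day 1. Over all 9912 probes, 17.0% had their highest mean at day 1 and 27.6% at day 14. In the day 1 tumors the set median lay between 0.28 and 0.38, and DDX17 and AKAP13 lay between 0.56 and 1.32. In day 14 replicate 1 the set median was 0.71 while DDX17 was at -0.40 and AKAP13 at -0.34, and 19 of the 159 probes, all 4 members included, were below the pool. In day 14 replicate 2 the set median was 0.81, and DDX17 and AKAP13, at 0.98 and 0.89, lay near it. The excess of replicate 2 over replicate 1 had a median of 0.14 over the probes of the set, and was 1.34 and 1.42 on the DDX17 probes and 1.35 and 1.10 on the AKAP13 probes, which were ranks 3, 1, 2 and 7 of 159. The excess of day 4 replicate 2 over the mean of the other day 4 tumors had a median of 0.08 over the set and lay between 0.68 and 1.89 on the member probes. Since the study formed the set from these same arrays, the ranks are a description.

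**Figure D5:**
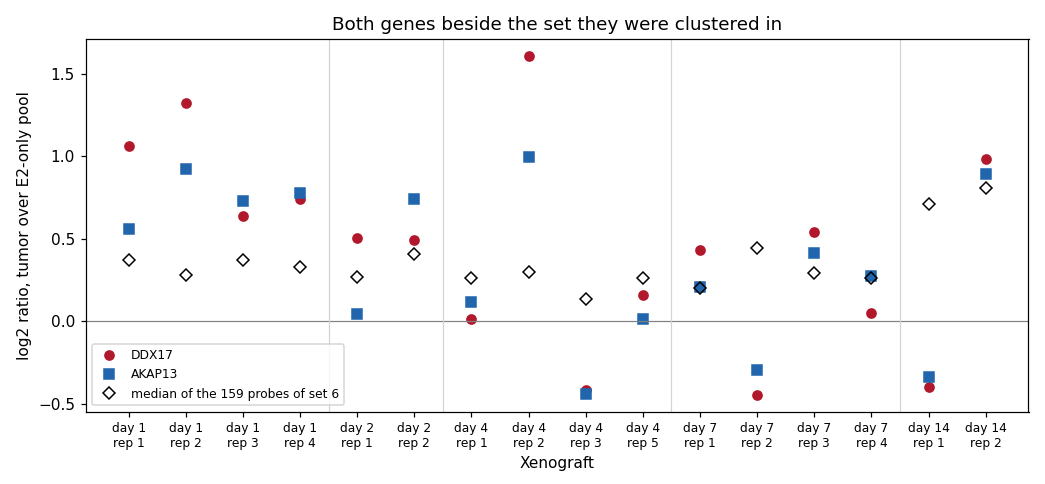
Log2 ratio of tumor over pool (y axis) in each xenograft (x axis) for DDX17, AKAP13 and the median of the 159 probes of set 6. The set median stays between 0.13 and 0.45 up to day 7 and is 0.71 and 0.81 at day 14, while both genes vary from below 0 to above 0.85 within days 4 and 14.

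Of 54 listed estrogen receptor coregulators, 8 had a named probe, and 6 of these were other genes than DDX17 and AKAP13. At day 1, 2 of these 6 were called higher by limma and 2 lower, beside 2.98% and 3.57% of all probes. Their median log2 ratio was 0.20, against 0.02 over the named genes and -0.01 over all probes. Named probes were selected by the study for having changed, so a high share of calls among them follows from that choice. CHD3, a chromatin remodeler of the NuRD complex, was called higher at 0.65 ± 0.18 (SD, n = 4), and PBXIP1, a protein that binds the estrogen receptor, at 0.38 ± 0.13. CITED1, a coactivator that bridges to CBP and p300, was called lower at -1.17 ± 0.31, and RBBP8, also called CtIP, at -0.51 ± 0.11. RBBP8 is counted again below, in the list of estrogen-induced genes. NCOA1, the coactivator SRC-1, was at 0.12 ± 0.22 and the deacetylase HDAC10 at 0.27 ± 0.18, and neither was called. At day 14, 4 of the 6 were called higher and 1 lower, beside 3.26% and 2.92% of all probes. NCOA1 was then at 0.65 and 0.74, CHD3 at 0.74 and 0.95 and PBXIP1 at 0.73 and 0.88 in replicates 1 and 2. HDAC10 was at 0.82 and 0.43 and RBBP8 at -0.69 and -0.70. CITED1 was at 0.51 and -0.76, on opposite sides of the pool as DDX17 and AKAP13 were, but with replicate 1 the higher one.

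Genes of pre-mRNA splicing, the process in which DDX17 acts, moved in both directions at day 1. SRRM2, a large splicing scaffold protein, was called higher at 0.62 ± 0.28 (SD, n = 4), and THOC4, a factor of mRNA export, was called lower at -0.67 ± 0.22. SFRS5, a splicing factor of the SR family, was at 0.13 ± 0.17 and not called. The glucocorticoid receptor NR3C1, the nuclear receptor with a named probe, was at 0.13 ± 0.22 at day 1. Of 30 listed estrogen-induced genes, 20 had a named probe, that is one already selected for change. Of these, 9 were called lower and 0 higher at day 1, with a median of -0.48, beside 3.57% of all probes called lower, and 18 were called lower at day 14, beside 2.92%, with TFF1 at -1.25 ± 0.22 at day 1 (n = 4).

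Markers of cell types were few among the named probes. The 6 of 14 luminal epithelial markers with a named probe had a mean log2 ratio between -0.26 and -0.08 in the day 1 tumors, and -0.29 in day 4 replicate 2. This mean joins genes of both directions, with TFF1, TFF3 and MUC1 called lower at day 1 (-1.25, -0.77 and -0.69) and CLDN4 called higher (0.88). TFF1 and TFF3 are also in the list of estrogen-induced genes, so the mean cannot be read as a number of epithelial cells. The 3 of 12 fibroblast and matrix markers (FN1, IGFBP7 and MGP) had a mean between -0.54 and -0.02 in the day 1 tumors. None was called at day 1, beside 2.98% of all probes called higher and 3.57% lower. In day 14 replicates 1 and 2 they were at -0.05 and -0.64. None of 8 endothelial and 9 leukocyte markers had a named probe. The muscle marker MB, or myoglobin, was called higher at day 1 (0.65 ± 0.11, SD, n = 4), with 0.17 in day 4 replicate 2, and the globin gene HBG1 was at -0.79 ± 0.29 and not called. Of 6 genes with a named probe in the list of immediate early and stress genes, 3 were called higher at day 1 (IER3, BTG2 and ZNF36, a symbol whose gene is not settled) and 1 lower (EGR3), beside 2.98% and 3.57% of all probes. FOS was at 0.32 ± 0.84. The part of these cell types and of tissue handling in the results was not tested. The only human cells were those of the ZR-75-1 line, so fibroblasts, muscle, blood and vessel cells would be mouse cells. Values of FN1, IGFBP7, MGP, MB and HBG1 therefore cannot be read as a share of those cells. In bulk tumors fewer cells of a type and less RNA per cell cannot be told apart, and binding of related transcripts, such as DDX5 or mouse RNA of the host, to the spotted cDNA was not tested.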

How the data were processed

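RNA of 16 ZR-75-1 xenografts was set against pooled E2-only tumor RNA on 32 dual-color cDNA arrays. Per channel, the deposited intensity files give the brightness of each spot and its surroundings, to which the authors had applied neither correction nor normalization. The log2 values of the deposited value table are ratios of tumor and pool per array, made by the authors with limma (background correction, loess and quantile normalization; version not given in the sources used here). Its column medians lie near 0, and its direction was matched to the scanner ratios (r between 0.217 and 0.994). It served as an alternative.

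limma 3.58.1 and statmod 1.5.0 were used under R 4.3.3. On each array 1 to 393 spots bore the mark 0 and were dropped, normexp with an offset of 50, loess and quantile normalization followed, and ratios were turned to tumor over pool and averaged per tumor. The sign is channel 2 over channel 1 on forward arrays. The linear model (lmFit, eBayes) held a mean for each day, tumors of a mouse were given a correlation of 0.0207 as estimated by duplicateCorrelation, and p-values were adjusted by Benjamini-Hochberg over 9912 probes. The fit was tested on simulated data whose probes varied independently. Spots here share an array and a pool, so that test gives no support to the calls. Array by array, spots had a median signal of 2.77 to 7.92 times background, and the number of arrays limits the precision. Tumors of 1 mouse are not separate animals. A gene value is the mean of its 2 probes. Gene names come from the study's list (333 probes, 253 symbols), the other probes are unnamed here, and positions come from GRCh38.p14.

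The members and gene lists were chosen with earlier results of these data known. Genes named are the members, the 5 other named genes with the highest r to each member, every listed coregulator with a named probe, and up to 4 genes of each other list in order of intensity, with the brighter probe for a gene. Some genes that the rule names, the counts of the splicing list and 1 further list are not reported here. Estrogen-induced genes, nuclear receptors and markers of luminal epithelium, fibroblasts and matrix, endothelium, leukocytes, erythroid cells and muscle were listed likewise. Alternatives covered background, normalization, spot marks, the value table, the doubtful array, dye orientation, the probe used, the mouse, array weights, dim probes, a replicate block and leaving out each tumor.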

Additional observations from a re-analysis of the deposited data

Results flagged for a closer look

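In 1 of 18 groups of 4 tumors tested (4 probes and 2 gene means at days 1, 4 and 7), 1 tumor lay far from the other 3 by Dixon's criterion. The first AKAP13 probe had a log2 ratio of -0.46 in day 7 replicate 2, against 0.25, 0.36 and 0.27 in the other tumors of that day, a gap of 0.860 of the range, above Dixon's critical value for 4 values. Chance gives about 1 such group in 20. The second AKAP13 probe (-0.13) and both DDX17 probes (-0.41 and -0.47) were also lowest in that tumor, with gaps under that value. The value was kept.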

How the results depend on the processing

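The day 1 ratio stayed above the pool in every setting run, between 0.69 and 1.19 for DDX17 and between 0.54 and 0.85 for AKAP13, and between 0.81 and 1.04 and between 0.69 and 0.81 with 1 tumor left out. Day 1 minus the later days stayed above 0 in all 31 settings of each gene. It was 0.45 to 0.79 for DDX17 and 0.34 to 0.65 for AKAP13 when 1 tumor was left out. The ends came from the day 14 tumors. All of these settings reuse the tumors on which both genes were chosen for a day 1 rise. The sign of neither result is therefore separate support. With 1 tumor left out, the day means ran from 0.05 to 0.74 for AKAP13 at day 2, from -0.08 to 0.59 for DDX17 and -0.10 to 0.38 for AKAP13 at day 4, and from 0.01 to 0.34 and 0.06 to 0.30 at day 7. The count of member probes called at day 1 did not hold. In place of 4 it was 2 with marked spots kept (265 of all probes called higher) and 0 with the doubtful array used as labelled (139). It was 1 on forward arrays alone (880), 2 on dye-swap arrays alone (103) and 0 with 1 mean per mouse (6). With 1 tumor left out it was 0 to 4. The count of all probes called higher at day 1, 295, lay between 6 (1 mean per mouse) and 880 (forward arrays alone), with 743 from array weights and 743 from the day 1 tumors alone, and between 43 and 470 with 1 tumor left out. In the contrast with later days, 2 probes were called, 0 to 19 in other settings and 0 to 12 with 1 tumor left out, and a member was called in no setting. The causes were not tested. With the replicate number as a block, day 1 minus later days was 0.69 for DDX17 and 0.48 for AKAP13, and 3 probes were called. Same-numbered tumors of different days share only a number (5 of 24 pairs correlated above 0.1), and 5 of 15 tumors correlated best with a tumor of their own number. Days 2 and 14 have 2 tumors each, which limits every statement about them.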

Other observations

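The deposited value table holds a column for the array that was left out, and that column does not follow the near-identical array. In it, day 4 replicate 3 had dye-swap log2 ratios of -0.47 and -0.82 on the DDX17 probes and -0.07 and -0.05 on the AKAP13 probes, below the pool on all 4 probes, as on its forward array. That column correlated with its scanner file at r = 0.365 over all probes. Among the other arrays, day 7 replicate 4 in forward orientation had the lowest match, 0.217.

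Most probes on the array are unnamed here. Between TM4SF4, the named gene most like DDX17, and DDX17 itself, 6 probes other than the members had a higher r with DDX17. SF1, the branch point binding protein of the spliceosome, was named after its values were seen. It was at 0.87 ± 0.51 at day 1 (SD, n = 4) and 1.47 in day 4 replicate 2, and at -0.45 and 0.60 in day 14 replicates 1 and 2. ERBB2, the receptor tyrosine kinase HER2, also named after its values were seen, was at 0.82 ± 0.18 at day 1 and 1.16 in day 4 replicate 2, with an r of 0.83 with DDX17 and 0.74 with AKAP13. BTG2, an antiproliferative gene of set 3 and the tenth in likeness to AKAP13, was at 0.60 ± 0.22 at day 1 and at -0.53 on average at day 14.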
